A study of Arabidopsis thaliana with 30 samples.

Results

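In leaves of the catalase mutant cat2-1, 6 genes had a higher signal than in wild type at each time and day length tested in air, and their levels are described here across all 10 groups. They are AT4G01870, AT3G20340, AT5G47330, AT5G02480, AT3G62860 and AT1G57590. They make up 6 of the 13513 probe sets that the annotation used here assigns to exactly 1 gene, and each is measured by 1 probe set. The genes were chosen from these same arrays because cat2 exceeded Col0 in each of 4 conditions (LD2, LD4, SD2 and SD4). Those 4 differences are therefore given as a description, with no test. Among all 22746 probe sets, 17 (0.0747%) were higher in cat2 in all 4 conditions at an adjusted p below 0.05, and 10 of these were among the single-gene probe sets (0.074%). AT3G62860 lay just inside that limit, with a log2 difference of 0.43 and an adjusted p of 0.0482 at SD2. Just outside it were AT1G76600 (0.73) and SAT32 (0.35), each with an adjusted p of 0.0632 at LD2, and AT3G13000 (0.51) with 0.0641 at SD2. Arrays of the genotypes did not overlap in any of the 4 for 71 probe sets (0.312%) higher in cat2, and 1886 (8.29%) had a difference above 0 in all 4.

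Transcripts of rosette leaves were measured on 30 Affymetrix ATH1 arrays, with 3 arrays in each of 10 groups. The RNA on an array came from pooled leaves, each from another plant, which makes the arrays biological replicates. The 5 cat2 groups carry 1 mutant allele, cat2-1, in the Col0 background, and the 5 Col0 groups are wild type. All plants were raised to an age of 5 weeks under 3000 ppm CO2 and short days (8 h light, 16 h dark). The hCO2 groups were sampled there, LD2 and LD4 after 2 and 4 days in air (400 ppm CO2) with long days of 16 h light and 8 h dark, and SD2 and SD4 after 2 and 4 days in air with short days kept. All leaves were harvested 7 h into the light. The treatment label of the Col0 hCO2 arrays reads 300 ppm while the growth protocol gives 3000 ppm, which was used. No group had long days at 3000 ppm CO2, so a difference between a long-day group and hCO2 holds both the change of air and the change of day length.

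CAT2 codes for the main catalase of leaf peroxisomes, where it breaks down the hydrogen peroxide that glycolate oxidase forms during photorespiration. High CO2 suppresses the oxygenation reaction of Rubisco and with it photorespiration, so plants without this catalase can be grown in high CO2 and exposed to peroxide from within by a move to air. Day length is known to change how such mutants respond. As background, AT4G01870 codes for a TolB-like beta-propeller protein, AT3G20340 for a protein of unknown function, and AT5G02480 for a member of the HSP20-like chaperone superfamily. A pair of the genes code for alpha/beta hydrolases, AT5G47330 of the palmitoyl protein thioesterase type and AT3G62860 of the monoacylglycerol lipase type. AT1G57590 belongs to the pectin acetylesterases, cell wall enzymes that remove acetyl groups from pectin.

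All signals are log2 values as deposited, made with RMA, which corrects background, aligns the distributions of the arrays and combines the probes of a set. A difference of 1 on this scale is a doubling. Levels are compared between groups for 1 gene at a time and never between genes, because probes differ in brightness. Replicate arrays correlated at 0.9845 to 0.9965, and 0 columns were identical. RCA, which codes for the leaf protein Rubisco activase, had a signal of 13.87 to 14.20 on all arrays, and the root-hair expansin gene EXPA7 one of 4.67 to 5.25. These were the 2 of 16 tissue markers to which the annotation assigns a probe set of their own. It assigns none to the flower and seed markers, so these were not analysed. No probe set was assigned to CAT2 in the annotation used here, so the transcript of the mutated gene was not analysed here.

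The signal of the 25S ribosomal RNA control moved with genotype in air. On the 12 cat2 air arrays it ranged from 6.96 to 8.77 with a median of 7.39, against 5.50 to 7.13 with a median of 6.64 on the 12 Col0 air arrays. At hCO2 it ranged from 6.45 to 6.77 in cat2 and from 6.58 to 6.84 in Col0. With this control as a covariate all 24 differences between the genotypes in air (6 genes in 4 conditions) lay above 0. They had 0.936 to 1.4 times their size without it. These differences chose the genes on the same arrays, so their sign here is a description. Whether the control signal bears on them was not tested.

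AT4G01870 had the widest range of group means of the 6 genes. Leaves hold several cell types, and fewer cells of a type and less RNA per cell cannot be told apart. At hCO2 its signal was 6.89, 7.09 and 6.91 in cat2, against 6.52, 6.40 and 7.66 in Col0. In long days it was 10.01, 9.34 and 10.47 in cat2, against 8.31, 8.14 and 7.64 in Col0 at day 2, and 9.20, 8.72 and 8.67 in cat2, against 7.24, 7.15 and 7.53 in Col0 at day 4. In short days it reached 12.28, 12.23 and 11.89 in cat2, against 7.46, 8.22 and 7.65 in Col0 at day 2, and 11.85, 11.59 and 11.76 in cat2, against 7.18, 8.58 and 7.07 in Col0 at day 4. The cat2 air arrays were all above the Col0 arrays of the same condition, while at hCO2 the genotypes overlapped, with Col0 replicate 3 the highest of the 6 arrays. The difference of cat2 from Col0 was 1.91 ± 0.34 at LD2 and 1.56 ± 0.34 at LD4, and 4.35 ± 0.34 at SD2 and 4.12 ± 0.34 at SD4 (log2 ± standard error from the fit, n = 3 arrays a group). The short-day values correspond to 20.4-fold and 17.4-fold. In order of the group means, SD2, SD4, LD2 and LD4 of cat2 came first, with no overlap between neighbours, followed by the 4 Col0 air groups, whose neighbours overlapped, and by the hCO2 groups of cat2 and Col0.

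**Figure D1:**
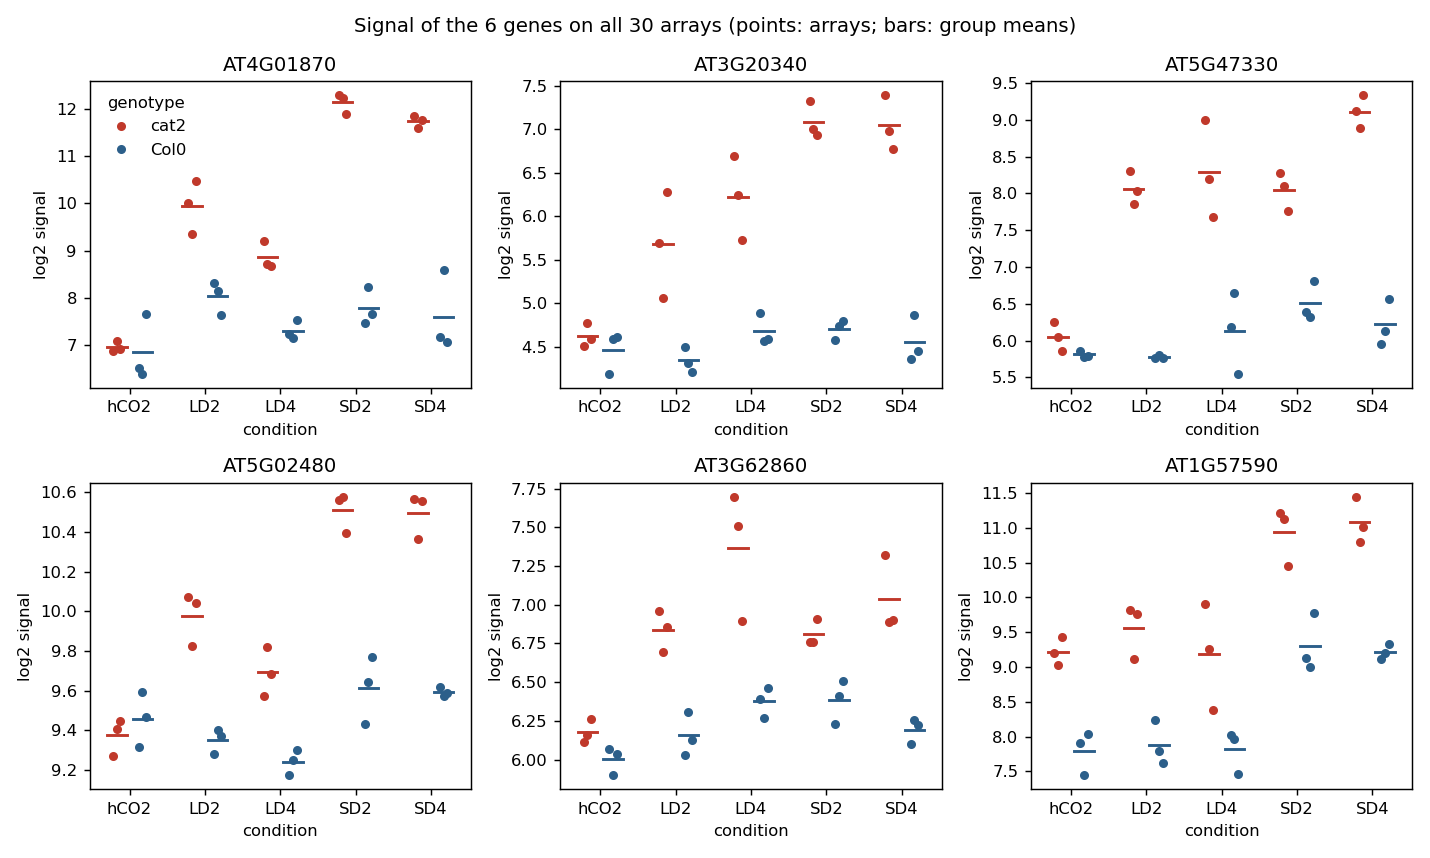
Log2 signal of each of the 6 genes by condition, with 1 point per array, a bar at the mean of 3 arrays, and cat2 in red beside Col0 in blue. In LD2, LD4, SD2 and SD4 all 3 cat2 points lie above all 3 Col0 points in every panel, whereas at hCO2 only AT1G57590 and AT3G62860 show the genotypes apart.

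For AT3G20340 the Col0 group means lay between 4.34 and 4.70 in all 5 conditions, while cat2 in air reached 5.68 to 7.09. At hCO2 the signal was 4.51, 4.77 and 4.59 in cat2, against 4.19, 4.59 and 4.61 in Col0. Long days gave 5.69, 5.06 and 6.28 in cat2, against 4.50, 4.32 and 4.20 in Col0 at day 2, and 6.69, 6.24 and 5.73 in cat2, against 4.89, 4.56 and 4.59 in Col0 at day 4. Short days gave 7.33, 7.00 and 6.93 in cat2, against 4.57, 4.74 and 4.79 in Col0 at day 2, and 7.39, 6.98 and 6.77 in cat2, against 4.36, 4.86 and 4.45 in Col0 at day 4. All 15 Col0 arrays were thus below a log2 signal of 5, in the dim range of the array, while every cat2 air array was above it. The difference between the genotypes was 1.34 ± 0.24 at LD2, 1.54 ± 0.24 at LD4, 2.38 ± 0.24 at SD2 and 2.49 ± 0.24 at SD4. In the order of the means the short-day cat2 groups overlapped each other, as did the long-day cat2 groups, and the 6 lowest groups (all Col0 groups and cat2 at hCO2) each overlapped the next.

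AT5G47330, the thioesterase-type hydrolase gene, had means of 8.06 in LD2 and 8.05 in SD2 in cat2. At hCO2 it had 6.25, 6.05 and 5.86 in cat2, against 5.87, 5.77 and 5.80 in Col0. Long days gave 8.30, 7.85 and 8.04 in cat2, against 5.76, 5.80 and 5.76 in Col0 at day 2, and 8.99, 8.20 and 7.68 in cat2, against 6.19, 6.64 and 5.55 in Col0 at day 4. Short days gave 8.28, 8.10 and 7.76 in cat2, against 6.39, 6.32 and 6.81 in Col0 at day 2, and 9.12, 8.88 and 9.33 in cat2, against 5.96, 6.14 and 6.57 in Col0 at day 4. The highest group was cat2 at SD4, whose arrays overlapped those of LD4, the group with the widest spread in cat2 (SD 0.66, n = 3). The differences between the genotypes were 2.29 ± 0.25 at LD2, 2.16 ± 0.25 at LD4, 1.54 ± 0.25 at SD2 and 2.89 ± 0.25 at SD4. This gene, AT3G62860 and AT1G57590 (1.68 and 1.63) had larger values at LD2 than at SD2. That difference was tested as an interaction of genotype and day length, given further below, and none of these genes passed.

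AT3G62860, the lipase-type hydrolase gene, had the smallest difference at SD2. Its signal at hCO2 was 6.12, 6.16 and 6.26 in cat2, against 6.07, 5.90 and 6.04 in Col0, so the arrays of the genotypes did not overlap there, with a gap of 0.05 between the nearest arrays. Long days gave 6.96, 6.70 and 6.85 in cat2, against 6.03, 6.31 and 6.13 in Col0 at day 2, and 7.70, 7.51 and 6.89 in cat2, against 6.39, 6.27 and 6.46 in Col0 at day 4. Short days gave 6.76, 6.76 and 6.91 in cat2, against 6.23, 6.41 and 6.51 in Col0 at day 2, and 7.32, 6.89 and 6.90 in cat2, against 6.10, 6.26 and 6.23 in Col0 at day 4. The cat2 group at LD4 had the highest mean and overlapped the next, cat2 at SD4. The genotypes differed by 0.68 ± 0.14 at LD2, 0.99 ± 0.14 at LD4, 0.43 ± 0.14 at SD2 and 0.84 ± 0.14 at SD4.

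AT5G02480, the HSP20-like gene, differed between the genotypes by less than a doubling in each condition. At hCO2 the arrays read 9.27, 9.41 and 9.45 in cat2, against 9.32, 9.59 and 9.47 in Col0. In long days they read 10.07, 9.82 and 10.04 in cat2, against 9.28, 9.40 and 9.37 in Col0 at day 2, and 9.57, 9.82 and 9.68 in cat2, against 9.17, 9.25 and 9.30 in Col0 at day 4. In short days they read 10.56, 10.58 and 10.39 in cat2, against 9.43, 9.64 and 9.77 in Col0 at day 2, and 10.57, 10.36 and 10.55 in cat2, against 9.62, 9.57 and 9.59 in Col0 at day 4. The differences were 0.63 ± 0.09 at LD2, 0.45 ± 0.09 at LD4, 0.90 ± 0.09 at SD2 and 0.90 ± 0.09 at SD4. The standard error of this gene, 0.09, was the smallest of the 6. Its cat2 LD4 arrays overlapped the Col0 SD2 arrays, although the means of all cat2 air groups lay above those of all Col0 groups.

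AT1G57590, the pectin acetylesterase gene, separated the genotypes in every condition, hCO2 included. At hCO2 its signal was 9.20, 9.03 and 9.43 in cat2, against 7.91, 7.44 and 8.03 in Col0. Long days gave 9.82, 9.12 and 9.76 in cat2, against 8.23, 7.80 and 7.62 in Col0 at day 2, and 9.91, 9.25 and 8.39 in cat2, against 8.03, 7.97 and 7.46 in Col0 at day 4. Short days gave 11.22, 11.13 and 10.46 in cat2, against 9.13, 9.00 and 9.77 in Col0 at day 2, and 11.44, 10.80 and 11.01 in cat2, against 9.11, 9.20 and 9.32 in Col0 at day 4. The lowest cat2 array of LD4, replicate 3, was 0.36 above the highest Col0 array of that condition. The differences in air were 1.68 ± 0.30 at LD2, 1.36 ± 0.30 at LD4, 1.63 ± 0.30 at SD2 and 1.87 ± 0.30 at SD4. In the order of the means, the groups from cat2 at LD2 down to cat2 at LD4, with both short-day Col0 groups and cat2 at hCO2 between them, overlapped each from one to the next.

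Over the 6 genes the differences in air ran from 0.63 to 2.29 at LD2 (median 1.51), from 0.45 to 2.16 at LD4 (1.45), from 0.43 to 4.35 at SD2 (1.59) and from 0.84 to 4.12 at SD4 (2.18). In all 4 conditions the arrays of the genotypes did not overlap for 6 of the 6 genes, as the choice of the genes would lead to. Of all probe sets 9.71% were higher in cat2 without overlap at LD2, 5.47% at LD4, 14.9% at SD2 and 7.58% at SD4. The Col0 arrays of a condition serve only that condition, but the 4 differences come from 1 fit with a shared error.

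**Figure D2:**
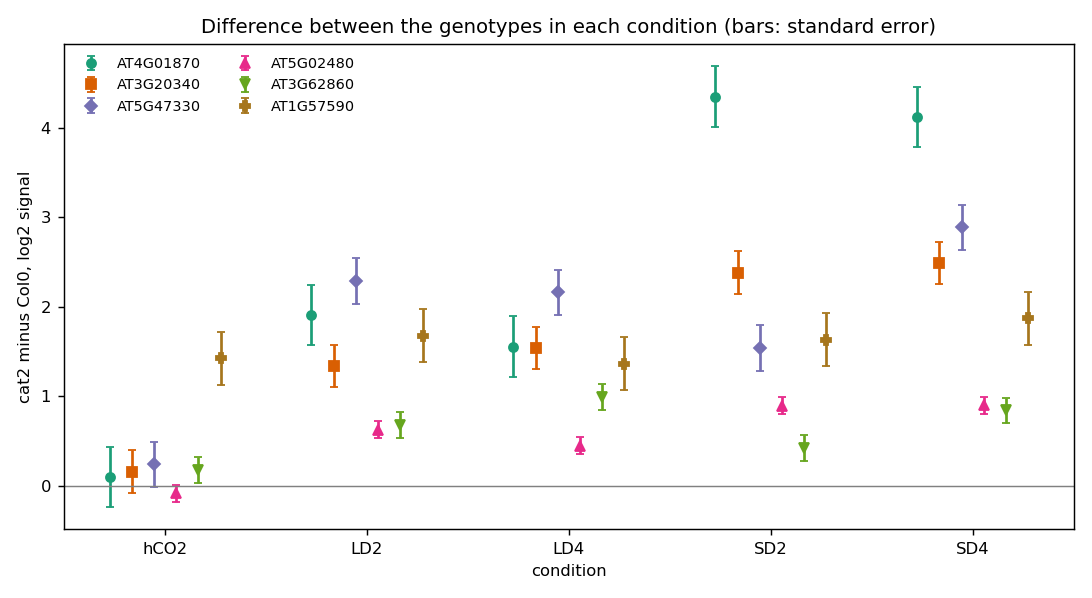
Difference of cat2 from Col0 on the log2 scale for each gene (marker) in each condition, with standard errors from the fit of all 30 arrays as bars. At hCO2 only AT1G57590 is far from 0, at 1.43, and the largest values are those of AT4G01870 at SD2 (4.35) and SD4 (4.12).

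The hCO2 arrays were not used by the rule, and the genotypes were tested there. The 4 other single-gene probe sets that met the rule, which are not among the 6 genes, had hCO2 differences of 4.04 (AT3G55920), 0.76 (AT1G43590), 0.38 (UGT73B1) and 0.20 (OCT5), so the counts at hCO2 hold for the 6 genes and not for all that met the rule. None of the 6 genes passed the limma test with Benjamini-Hochberg adjustment over all 22746 probe sets, where 0.00879% of all probe sets rose and 0.0044% fell, and 1 of the 6 had an unadjusted p below 0.05. That gene was AT1G57590, at 1.43 ± 0.30 in cat2 (adjusted p = 0.113, limma), which is 2.69-fold. Among differences toward higher signal in cat2 it was the fourth largest of all probe sets, with all 3 cat2 arrays above all 3 Col0 arrays, and the group means were 9.22 ± 0.20 in cat2 and 7.80 ± 0.31 in Col0 (SD, n = 3). With array weights, under which 7694 of all 22746 probe sets were called against 3 without them, AT1G57590 passed (adjusted p = 1.3e-05, limma), as did AT5G47330 (adjusted p = 0.0299). The arrays of the genotypes did not overlap for 2 of the 6 genes, AT1G57590 and AT3G62860, and 5.99% of all probe sets were higher in cat2 without overlap.

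For the other 5 genes the differences at hCO2 were between −0.08 (AT5G02480) and 0.24 (AT5G47330), and their 95% intervals bound what could have been missed. The interval was −0.60 to 0.80 for AT4G01870, −0.33 to 0.65 for AT3G20340 and −0.28 to 0.77 for AT5G47330. For AT5G02480 it was −0.28 to 0.11, and for AT3G62860 −0.12 to 0.48. Each upper bound is below that gene's smallest difference in air except for AT3G62860, whose SD2 difference was 0.43. The differences in air chose the genes and have errors of their own, so this is a description and no test.

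Each air group can also be set against the hCO2 arrays of its own genotype. These values reuse the arrays that chose the genes and carry no test. AT4G01870 differed from hCO2 in cat2 by 2.98 ± 0.34 at LD2, 1.90 ± 0.34 at LD4, 5.17 ± 0.34 at SD2 and 4.77 ± 0.34 at SD4. In Col0 the same differences were 1.17 ± 0.34, 0.44 ± 0.34, 0.92 ± 0.34 and 0.75 ± 0.34. For AT3G20340 they lay between 1.05 and 2.46 in cat2 and between −0.12 and 0.24 in Col0. For AT5G47330 they lay between 1.99 and 3.06 in cat2 and between −0.04 and 0.69 in Col0.

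AT1G57590 departed from AT4G01870, AT3G20340 and AT5G47330, because in short days both genotypes stood above their hCO2 level by a similar amount. The difference from hCO2 was 1.71 ± 0.30 in cat2 and 1.51 ± 0.30 in Col0 at SD2, and 1.86 ± 0.30 in cat2 and 1.42 ± 0.30 in Col0 at SD4. In long days it was 0.34 ± 0.30 in cat2 and 0.09 ± 0.30 in Col0 at LD2, and −0.04 ± 0.30 in cat2 and 0.02 ± 0.30 in Col0 at LD4. The gap between the genotypes was thus between 1.36 and 1.87 in the 4 air conditions and 1.43 at hCO2. Its groups overlapped between long days and hCO2 in both genotypes.

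The difference between long and short days was not part of the rule, although the arrays compared are those that chose the genes. In cat2 at day 2, 4 of the 6 genes fell in long days relative to short days and none rose (7.36% of all probe sets fell and 8.76% rose, limma with Benjamini-Hochberg). AT4G01870 fell by 2.19 (standard error 0.34, adjusted p = 5.79e-05, limma), with means of 9.94 ± 0.57 in LD2 and 12.13 ± 0.21 in SD2 (SD, n = 3). AT3G20340 changed by −1.41 ± 0.24 (adjusted p = 0.000161), AT1G57590 by −1.37 ± 0.30 (adjusted p = 0.00211) and AT5G02480 by −0.53 ± 0.09 (adjusted p = 0.00027). For these 4 genes all LD2 arrays lay below all SD2 arrays of cat2, as for 15.3% of all probe sets, and the count of 4 held whichever of the 6 arrays was left out. The hydrolase genes did not pass, with 0.02 ± 0.25 for AT5G47330 (95% interval −0.51 to 0.54) and 0.03 ± 0.14 for AT3G62860 (−0.27 to 0.32).

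At day 4 in cat2, 5 of the 6 genes fell in long days relative to short days and none rose (6.25% of all probe sets fell and 5.51% rose). AT4G01870 changed by −2.87 ± 0.34 (adjusted p = 1.53e-06, limma), 7.3-fold lower in LD4 than in SD4. AT1G57590 changed by −1.90 ± 0.30 (adjusted p = 7e-05) and AT5G02480 by −0.80 ± 0.09 (adjusted p = 1.28e-06). The falls of AT3G20340 (−0.83 ± 0.24, adjusted p = 0.0223) and AT5G47330 (−0.82 ± 0.25, adjusted p = 0.0361) rested on single arrays. That of AT3G20340 was lost without cat2 SD4 replicate 1 (adjusted p = 0.122, limma) or without cat2 LD4 replicates 2 (0.0576) or 3 (0.157). That of AT5G47330, whose LD4 and SD4 arrays overlapped, was lost without cat2 SD4 replicates 1 (0.0825) or 3 (0.145) and without cat2 LD4 replicates 2 (0.112) or 3 (0.241). Its value lay between −1.17 and −0.52 with 1 array left out, at −0.52 without cat2 LD4 replicate 3, and that of AT3G20340 between −1.06 and −0.58.

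AT3G62860 went the other way at day 4, at 0.33 ± 0.14 in long days, and did not pass (adjusted p = 0.16, limma). It passed without cat2 LD4 replicate 3, at 0.57 (adjusted p = 0.00301, limma), and without cat2 SD4 replicate 1, at 0.47 (adjusted p = 0.0478). Array cat2 LD4 replicate 3 had the lowest signal of its group for 5 of the 6 genes, and for 37.6% of all probe sets. It also had the highest 25S control signal of all arrays, 8.77. With that control as a covariate the value of AT3G62860 was 0.29 (adjusted p = 0.168, limma).

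In Col0 the pectin acetylesterase gene was lower in long days at both times. At day 2 AT1G57590 alone fell in long days, by 1.42 (standard error 0.30, adjusted p = 0.00205, limma), where 5.67% of all probe sets fell and 6.1% rose. At day 4 AT1G57590 (−1.39 ± 0.30, adjusted p = 0.00221) and AT5G02480 (−0.35 ± 0.09, adjusted p = 0.0122) fell, where 6.35% of all probe sets fell and 7.11% rose. With the actin control difference as a covariate the call of AT1G57590 at day 4 was lost (adjusted p = 0.0843, limma). The Col0 call of AT5G02480 at day 4 was lost without Col0 LD4 replicate 1 (adjusted p = 0.0527, limma), and AT5G02480 gained one at day 2 without Col0 SD2 replicate 1 (0.0236). For AT5G47330 at day 2 the value was −0.73 ± 0.25 (adjusted p = 0.0636), with the arrays of LD2 all below those of SD2. It gained a call in 5 of the 16 alternatives run. AT4G01870 had 0.25 ± 0.34 at day 2 and −0.30 ± 0.34 at day 4, neither of which passed.

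**Figure D3:**
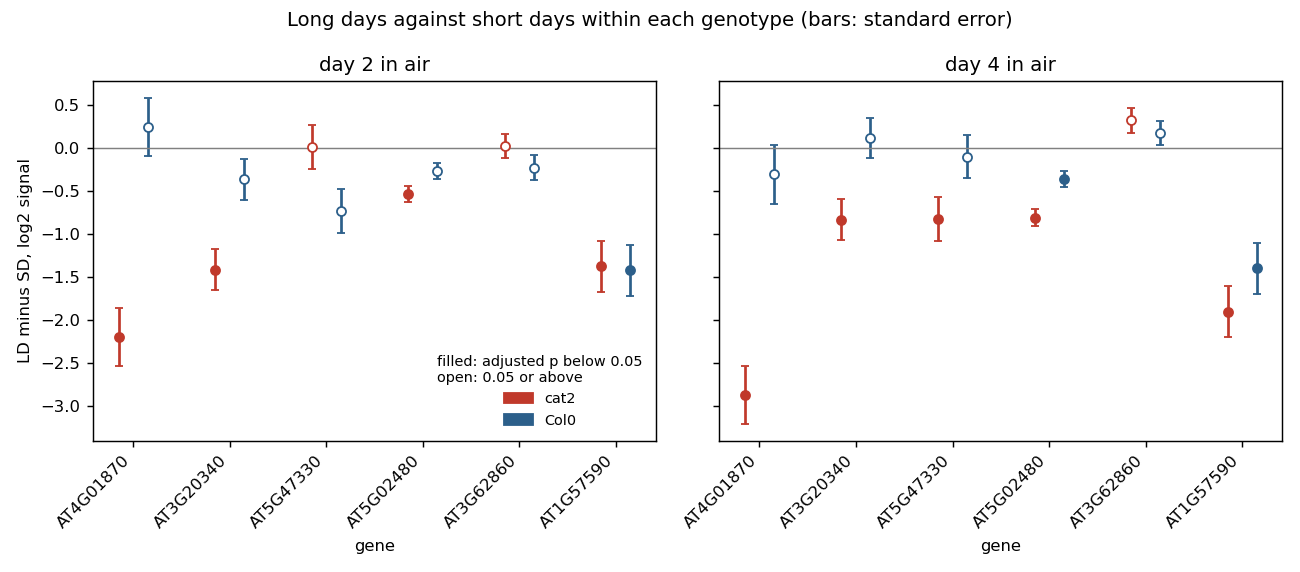
Long days minus short days on the log2 scale for each gene, in cat2 (red) and Col0 (blue), at day 2 (left) and day 4 (right), with standard errors as bars and filled points where the adjusted p is below 0.05. AT4G01870 is low in cat2 alone (−2.19 and −2.87), AT1G57590 is low in both genotypes (−1.37 to −1.90), and AT3G62860 has open points in both genotypes.

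Whether day length acted differently in the genotypes was tested as an interaction. It is the cat2 minus Col0 difference in long days less that in short days. The rule had required each of these differences to be above 0, and the adjusted p takes no account of that choice. AT4G01870 alone of the 6 genes passed, at day 2 with −2.44 ± 0.48 (adjusted p = 0.00237, limma) and at day 4 with −2.57 ± 0.48 (adjusted p = 0.00452, limma), where 3.58% and 0.813% of all probe sets had a negative interaction that passed, and 4.13% and 0.0484% a positive one. Its difference between the genotypes was thus 5.43-fold smaller in long days at day 2 and 5.92-fold smaller at day 4. AT3G20340 had −1.05 ± 0.34 at day 2 (adjusted p = 0.0562) and passed when cat2 LD2 replicate 3 was left out (0.0111, limma). At day 4 it had −0.95 ± 0.34 (adjusted p = 0.293). The interaction of AT1G57590 was 0.05 ± 0.42 at day 2 (95% interval −0.82 to 0.91) and −0.51 ± 0.42 at day 4 (−1.37 to 0.36). These intervals allow changes of over 1 log2 unit at day 4. The remaining values lay between −0.27 (AT5G02480) and 0.75 (AT5G47330) at day 2, and between −0.72 (AT5G47330) and 0.15 (AT3G62860) at day 4, and none passed. Within that range AT5G02480 at day 4 stayed negative, at −0.52 to −0.39 with 1 array left out, and passed under no alternative. At an unadjusted p below 0.05 there were 3 of the 6 genes at day 2 and 3 at day 4.

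Between day 4 and day 2 a single call was made among the 6 genes over 4 comparisons. AT5G47330 rose in cat2 in short days by 1.06 ± 0.25 (adjusted p = 0.0411, limma), with means of 9.11 ± 0.22 at day 4 and 8.05 ± 0.27 at day 2 (SD, n = 3), where 0.171% of all probe sets rose and 0.778% fell. All SD4 arrays lay above all SD2 arrays, but the call was lost whichever of the 6 arrays was left out, cat2 SD2 replicates 1 to 3 and cat2 SD4 replicates 1 to 3 (adjusted p = 0.0749 to 0.201, limma). None of the 6 genes passed the limma test in the other 3 comparisons, and at an unadjusted p below 0.05 there were 4 in cat2 in long days, 0 in Col0 in short days and 1 in Col0 in long days. At an adjusted p below 0.05, 0.602% of all probe sets rose and 1.1% fell in cat2 in long days. The shares were 0.0044% and 0.044% in Col0 in short days, and 1.06% and 0.879% in Col0 in long days. No share of all probe sets is given at the unadjusted limit for any comparison. The unadjusted counts here, at hCO2, for the interactions and in the gene lists below thus have nothing beside them. In cat2 in long days the hydrolase gene AT3G62860 had 0.53 ± 0.14 (adjusted p = 0.0571) and AT4G01870 −1.08 ± 0.34 (adjusted p = 0.111), opposite in sign. AT3G62860 passed there without cat2 LD4 replicate 3, at 0.77 (adjusted p = 0.00252, limma).

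The profiles of the genes over the 10 group means resembled each other, as genes chosen by a shared difference would. Pearson correlations over the 15 pairs ran from 0.62 (AT3G62860 with AT1G57590) to 0.96 (AT4G01870 with AT5G02480). They are given without a test, since all pairs share the arrays and the choice. The deviations of single arrays from their group means correlated between 0.04 (AT5G47330 with AT5G02480) and 0.75 (AT5G47330 with AT1G57590) over 30 arrays. Replicate arrays of a group thus tended to be high or low together for some pairs of the genes. AT5G02480 had no correlation above 0.28 with any other of the 6, and AT4G01870 with AT5G47330 had 0.06. In cat2 at LD2 replicate 2 was the lowest of its 3 arrays for 6 of the 6 genes, against 34.8% of all probe sets. In cat2 at LD4 replicate 1 was the highest for 5 of the 6, against 40.3% of all probe sets. These counts are among the largest of the 10 groups.

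**Figure D4:**
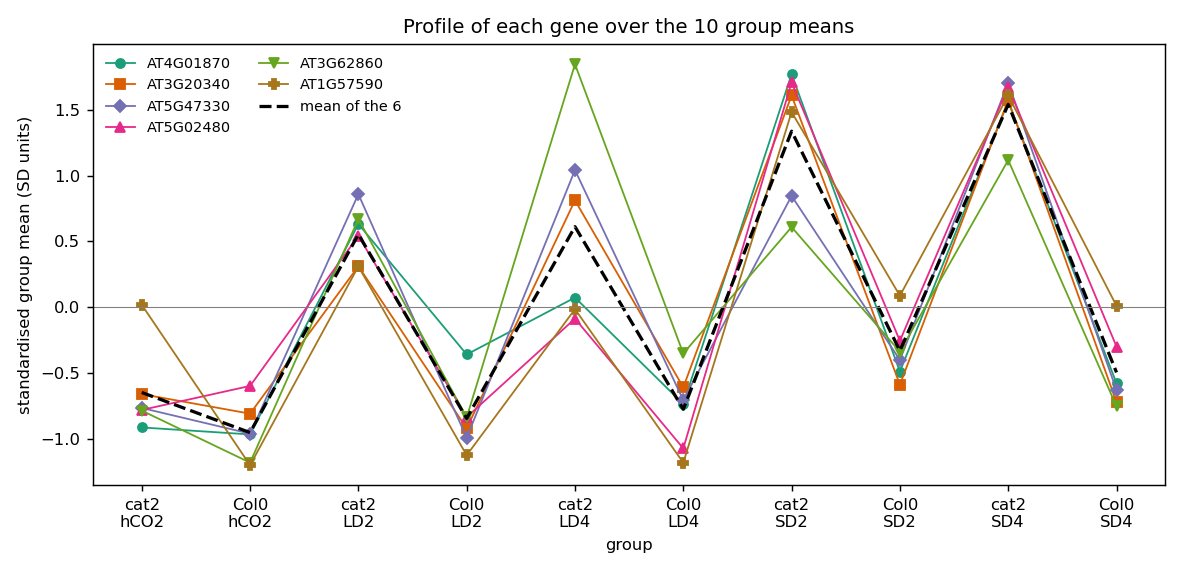
Group means of each gene over the 10 groups, each gene centred on its mean and divided by its SD over the groups, with lines joining the values of 1 gene and the mean of the 6 genes dashed. Each gene stands higher in cat2 than in Col0 in each air condition, AT1G57590 lies apart in the hCO2 group of cat2, and AT3G62860 peaks in cat2 at LD4.

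Among 468 other single-gene probe sets whose group means varied by an SD of at least 0.5, the 5 most like the mean profile of the 6 genes over the 10 group means were named by a fixed rule. They were OCT5, an organic cation/carnitine transporter gene (r = 0.94), the UDP-glycosyltransferase gene UGT73B1 (r = 0.94), AT5G11410 (r = 0.94), AT5G12010 (r = 0.93) and the allantoate amidohydrolase gene AAH (r = 0.93). OCT5 and UGT73B1 are among the 10 single-gene probe sets that met the rule itself, so their likeness follows in part from it. Taken gene by gene, AT4G01870 was closest to AT5G12010 (r = 0.99), AT3G20340 to AAH (0.96) and AT5G47330 to AT5G11410 (0.95). OCT5 was closest to both AT5G02480 (0.99) and AT1G57590 (0.94). The nearest gene to AT3G62860 was AT3G15720 (0.90), which had a difference of −0.39 between cat2 and Col0 at hCO2, against 1.41 at LD2 and 1.99 at SD4.

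Relatives of 4 of the genes were taken from lists of their families, and the genotypes were compared in the relatives with the same test. Besides AT4G01870 the TolB-like list held AT1G21670 and AT1G21680, and both rose in cat2 in short days. AT1G21680 rose by 0.65 ± 0.16 at SD2 (adjusted p = 0.00724, limma) and 0.90 ± 0.16 at SD4 (adjusted p = 0.00114), and AT1G21670 by 0.27 ± 0.08 and 0.37 ± 0.08. The calls of AT1G21670 were lost without Col0 SD2 replicate 1 or cat2 SD2 replicates 1 or 2 at SD2 (adjusted p = 0.0983, 0.104 and 0.0522, limma), and without cat2 SD4 replicate 2 or Col0 SD4 replicate 3 at SD4 (0.058 and 0.0675). In long days neither passed, at 0.24 ± 0.08 and 0.38 ± 0.16 at LD2 and 0.21 ± 0.08 and 0.06 ± 0.16 at LD4 for AT1G21670 and AT1G21680 in that order. Their median difference was 0.46 at SD2 and 0.63 at SD4, in the same direction as AT4G01870 and well below its 4.35 and 4.12. Of all probe sets 0.541% rose and 0.607% fell in cat2 at LD2, 0.246% and 0.479% at LD4, 6.62% and 7.56% at SD2, and 1.53% and 0.163% at SD4.

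In the monoacylglycerol lipase-like family none of the 14 measured relatives of AT3G62860 rose in cat2 in any of the 5 conditions by limma, and at an unadjusted p below 0.05 in either direction there were 2 at hCO2, 4 at LD2, 2 at LD4, 3 at SD2 and 4 at SD4. AT2G39420 fell at LD2 (−1.45 ± 0.33, adjusted p = 0.026, limma) and SD2 (−1.17 ± 0.33, adjusted p = 0.019), and AT1G73480 at LD4 (−0.80 ± 0.13, adjusted p = 0.00462) and SD2 (−0.49 ± 0.13, adjusted p = 0.0165). AT2G39420 lost its LD2 call without Col0 LD2 replicates 1, 2 or 3 (adjusted p = 0.148, 0.0641 and 0.06, limma) and without cat2 LD2 replicates 1 or 2 (0.11 and 0.179). At SD2 it lost it without Col0 SD2 replicates 1 or 3 (0.0527 and 0.0593) or cat2 SD2 replicate 2 (0.0988), and AT1G73480 without replicate 3 of Col0 SD2 (0.11) or of cat2 SD2 (0.0853). The family median stayed between −0.08 (SD2) and 0.09 (hCO2), against 0.43 to 0.99 for AT3G62860 in air. With the 25S control as a covariate all 4 of these calls were lost, although the differences stayed negative. For AT2G39420 they were −1.21 at LD2 and −0.84 at SD2 (adjusted p = 0.0926 and 0.124, limma), and for AT1G73480 −0.63 at LD4 and −0.38 at SD2 (0.245 and 0.1).

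None of the 6 measured relatives of AT5G47330 passed in any of the 5 conditions by limma with Benjamini-Hochberg, and at an unadjusted p below 0.05 there were 0 at hCO2, 1 at LD2, 2 at LD4, 1 at SD2 and 0 at SD4. AT5G47340, which lies next to AT5G47330 in the RefSeq gene order, had 0.23 ± 0.10 at LD2 and 0.01 ± 0.10 at SD4, and AT5G47350 had −0.04 ± 0.09 and −0.06 ± 0.09. None of the 5 measured relatives of AT1G57590 passed either, and at an unadjusted p below 0.05 there were 1, 1, 1, 0 and 1 of the 5 at hCO2, LD2, LD4, SD2 and SD4. Their median difference lay between −0.03 (SD2) and 0.12 (LD4), against 1.36 to 1.87 for AT1G57590 in air. Of the 12 protein-coding genes flanking the 6 genes 7 were measured. AT4G01880, next to AT4G01870, rose at SD2 (0.46), AT3G20330, next to AT3G20340, fell at SD2 (−0.41) and rose at LD4 (0.42), and AT5G02490, next to AT5G02480, fell at LD2 (−1.54), names that were chosen after their values were seen.

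**Figure D5:**
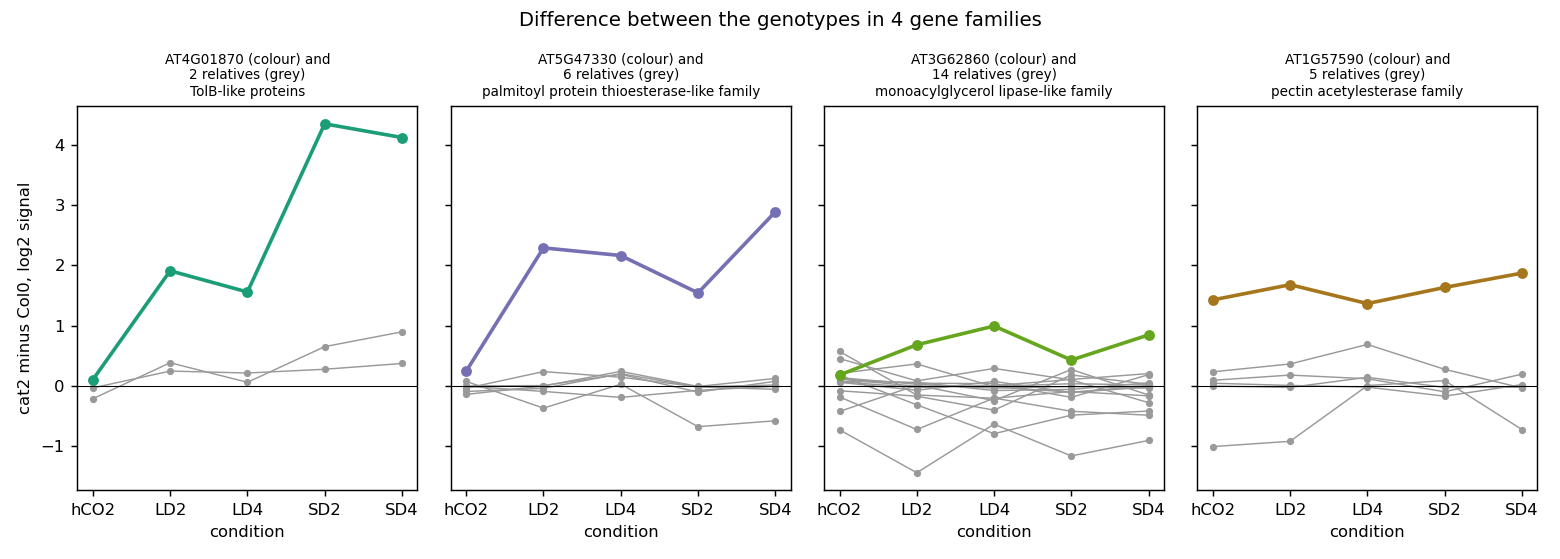
Difference of cat2 from Col0 on the log2 scale by condition for 4 of the genes (coloured lines) and the measured relatives in their family lists (grey lines), with lines joining the values of 1 gene. All relatives of AT5G47330 and AT1G57590 lie below these genes, which reach 2.89 and 1.87, and both relatives of AT4G01870 lie above 0 in air.

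General markers of reactive oxygen, which rise under many kinds of oxidative stress, were represented by 4 measured genes. At SD2 3 of the 4 rose in cat2, AT1G05340 (2.21 ± 0.49, adjusted p = 0.00361, limma), AT1G19020 (2.02 ± 0.41, adjusted p = 0.00169) and AT2G21640 (1.31 ± 0.23, adjusted p = 0.000383). Of all probe sets 6.62% rose and 7.56% fell in cat2 at SD2, and 1.53% rose and 0.163% fell at SD4. At SD4 AT2G21640 alone rose (1.00 ± 0.23, adjusted p = 0.016), a call lost without replicate 1 of Col0 SD4 or of cat2 SD4 or without Col0 SD4 replicate 2 (adjusted p = 0.0614, 0.14 and 0.107, limma). With the 25S covariate its difference was 0.58 (adjusted p = 0.693, limma). AT1G57630 passed at neither time, with 0.36 ± 0.61 at SD2 and −0.53 ± 0.61 at SD4. None of the 4 passed at hCO2, LD2 or LD4 (2, 2 and 0 at an unadjusted p below 0.05). Their median difference was −0.76, −0.33 and −0.09 there, 1.67 at SD2 and 0.57 at SD4, beside medians of −0.04 to 0.02 over all probe sets.

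Of 4 measured genes for peroxide removal, the cytosolic glutathione reductase gene GR1 rose at SD2 (0.52 ± 0.15, adjusted p = 0.0233, limma) and the stromal ascorbate peroxidase gene SAPX fell (−0.45 ± 0.14, adjusted p = 0.0388). At SD2 6.62% of all probe sets rose in cat2 and 7.56% fell. GR1 lost its call without Col0 SD2 replicates 1 or 2 or cat2 SD2 replicates 1 or 2 (adjusted p = 0.0793, 0.129, 0.147 and 0.0777, limma), and SAPX without any single array of these groups, Col0 SD2 replicates 1 to 3 and cat2 SD2 replicates 1 to 3 (0.0576 to 0.177). None of the 4 passed in the other 4 conditions, with 2, 0, 2 and 0 at an unadjusted p below 0.05 at hCO2, LD2, LD4 and SD4.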

How the data were processed

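Leaf transcripts of Arabidopsis were measured on 30 ATH1 arrays. The deposited values are log2 signals per probe set that the authors made with RMA (package affy), per the submitters' processing notes. Tool versions are not given in the sources used here. No further scaling was applied. Without 64 controls, 22746 probe sets entered the tests. Of these 13513 had exactly 1 gene in the platform annotation, 503 several and 8730 none listed. Loci and neighbouring genes came from RefSeq (TAIR10.1). Of 50 other genes in 6 family and stress lists 35 had a probe set of their own.

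Group means over all 30 arrays were fitted with limma 3.58.1 in R 4.3.3 (20 residual degrees of freedom, no replicate block). Tests were two-sided, Benjamini-Hochberg adjustment ran over 22746 probe sets, and calls needed an adjusted p below 0.05. The members, the lists and the rule for similar genes (SD of at least 0.5 over group means, the 5 highest correlations) were chosen with earlier results of these data known. Alternatives comprised the replicate block, fits limited to the arrays compared, dim probe sets (mean log2 below 5) left out, quantile normalization once more, median centring, eBayes with trend and robust, array weights, and each array left out in turn. Covariates (25S, actin, BioB) were added after seeing the data. Deviations of same-numbered arrays correlated above 0.1 in all 3 pairs for cat2 against Col0 at LD4 (0.442, 0.446 and 0.219) and SD4 (0.625, 0.312 and 0.629). They did so for no other pair of groups that was checked. The pairs checked were genotypes within a condition, day lengths within a genotype and day, and days within a genotype and day length. The labels do not say what equal numbers share. The code was tested on simulated data. Tables and figures used Python 3.11.15, pandas 2.3.3 and matplotlib 3.10.9. The number of arrays limits the precision.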

Additional observations from a re-analysis of the deposited data

Results flagged for a closer look

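The difference of cat2 from Col0 in AT4G01870 itself differed between long and short days, by −2.44 ± 0.48 at day 2 (adjusted p = 0.00237, limma) and by −2.57 ± 0.48 at day 4 (adjusted p = 0.00452, limma), with n = 3 arrays in each of the 4 groups of a day. It was called under each of the 22 alternatives run at each day. The differences within long and short days helped choose this gene, and the adjusted p takes no account of that choice.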

How the results depend on the processing

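Of 1128 values of the 6 genes recomputed in the 11 tested comparisons 1039 kept their direction and their side of the threshold, 21 lost a call, 23 gained one and 45 changed sign, all of the last without a call. All 24 differences between the genotypes in air stayed above 0 under every alternative run, at 0.669 to 1.4 times their size. These differences chose the genes on the same arrays, so their sign is a description and no test. With array weights 2 of the 6 genes were called at hCO2 in place of 0, while the calls over all 22746 probe sets numbered 7694 in place of 3, so the 2 are no result about these genes. For long against short days it was 3 in cat2 at day 4 with only the arrays compared. In Col0 at day 2 it was 2 with dim probe sets left out, with quantile normalization once more, with arrays centred on their median, with array weights, with the actin difference as a covariate and with only the arrays compared. In Col0 at day 4 it was 1 with array weights, with the actin difference and with only the arrays compared. Between days in short-day cat2 it was 0 with the 25S control as a covariate, and in long-day cat2 it was 1 with dim probe sets left out, 2 with array weights and 1 with the 25S control. For the interaction at day 2 it was 2 with dim probe sets left out, quantile normalization, array weights, the 25S control or only the arrays compared. Leaving out single arrays gave 3 to 5 (cat2, LD against SD, day 4), 1 to 2 (Col0, LD against SD, day 2 and day 4), 0 (cat2, SD, day 4 against day 2), 0 to 1 (cat2, LD, day 4 against day 2) and 1 to 2 (interaction, day 2). The cause of these moves was not tested. Estimation of the array weights stopped before full convergence. The replicate block moved no count, with 0 at hCO2, 4, 5, 1 and 2 for day length, 1, 0, 0 and 0 between days and 1 and 1 for the interactions. It also kept each call of the named list genes. With only the arrays compared, AT1G73480 lost its calls at LD4 and SD2 and AT1G21670 those at SD2 and SD4. AT2G39420 lost that at LD2 and GR1 that at SD2 (adjusted p = 0.0522 to 0.165 for these calls, limma). At SD2 SAPX lost its call with the 25S (0.0686) and BioB (0.161) covariates, GR1 with BioB (0.105) and AT1G21670 with arrays centred on their median (0.0908). Sign changes with 25S control added to the model were AT3G62860 −0.029 (LD against SD, day 2, cat2) and AT3G20340 0.053 (day 4 against day 2, SD, cat2). Sign changes with BioB added to the model were AT3G62860 −0.080 (LD against SD, day 2, cat2), AT4G01870 −0.078 (LD against SD, day 2, Col0), AT3G20340 −0.28 (LD against SD, day 4, Col0), AT5G47330 0.067 (LD against SD, day 4, Col0), AT3G62860 −0.16 (LD against SD, day 4, Col0) and AT3G62860 −0.031 (day 4 against day 2, LD, Col0). Sign changes with array weights were AT3G20340 −0.0027 (LD against SD, day 4, Col0), AT5G02480 0.013 (day 4 against day 2, SD, cat2), AT4G01870 0.25 (day 4 against day 2, SD, Col0) and AT5G02480 0.027 (day 4 against day 2, SD, Col0). Sign changes with actin 3 minus 5 added to the model were AT5G47330 0.41 (LD against SD, day 4, Col0), AT5G02480 0.0023 (day 4 against day 2, SD, Col0) and AT1G57590 0.22 (day 4 against day 2, LD, Col0). For LD against SD, day 2, cat2 the range was AT3G62860 −0.034 to 0.098 and AT5G47330 −0.13 to 0.13. For LD against SD, day 4, Col0 the range was AT4G01870 −0.57 to 0.18 and AT5G47330 −0.35 to 0.19. For genotype at hCO2 the range was AT4G01870 −0.13 to 0.50. For day 4 against day 2, LD, Col0 the range was AT1G57590 −0.20 to 0.11. For day 4 against day 2, LD, cat2 the range was AT1G57590 −0.74 to 0.018 and AT5G47330 −0.12 to 0.53. For day 4 against day 2, SD, Col0 the range was AT1G57590 −0.24 to 0.15, AT4G01870 −0.66 to 0.099 and AT5G02480 −0.11 to 0.057. For day 4 against day 2, SD, cat2 the range was AT1G57590 −0.092 to 0.29, AT3G20340 −0.21 to 0.099 and AT5G02480 −0.074 to 0.051. For genotype by day length, day 2 the range was AT1G57590 −0.19 to 0.27. For genotype by day length, day 4 the range was AT3G62860 −0.017 to 0.38. Signals near the dim end of the array limit what can be said of AT3G20340 in Col0.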
